A study of Homo sapiens with 6 samples.

Results

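The human alpha- and beta-globin loci hold the genes for the protein chains of haemoglobin together with the distant enhancers that switch them on. Members were chosen by position alone: every interval of the deposited ATAC-seq peak lists that touched chr11:5240000-5315000 or chr16:100000-235000 of hg19. These windows of 75 and 135 kb held 28 intervals out of 48967 over 6 lists, which merged into 13 regions out of 17466. ATAC-seq inserts sequencing adapters into accessible DNA with a transposase, and the peak lists name the places where fragments pile up over the local background.

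The cells were K562, an established human leukaemia line whose cell type the labels give as lymphoblast. 3 modified versions were compared: K562 overexpressing SLFN11 with the E669Q substitution, K562 overexpressing wild-type SLFN11 and K562 with a vector control. Each version was given either camptothecin (CPT, a topoisomerase I poison that stalls replication) at 1000 nM for 4 h, or DMSO. This makes 6 groups of 1 library, so no difference below has a replicate check, and the labels do not say which promoter drives SLFN11 or whether a line is 1 clone.

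Globin genes are switched in order during human development. In the beta cluster, HBE1 serves the embryo, HBG1 and HBG2 the fetus, and HBD and HBB the adult, and all of them share the upstream locus control region, a row of nuclease-hypersensitive sites called HS1 to HS5. In the alpha cluster, HBZ is embryonic, HBA1 and HBA2 are fetal and adult, HBM is expressed in erythroid cells at a low level, and the enhancers lie far upstream, most of them inside introns of the neighbouring gene NPRL3. K562 cells are known to make embryonic and fetal globins and little or no adult HBB.

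Promoters of 3 genes from RefSeq (GRCh38.p14, 250 bases upstream of the gene's start, 5′ to 3′) are shown. HBD and HBM were the only globin genes of the windows with a promoter sequence at hand, so no listed globin promoter is shown. HBD (chr11:5234484-5234733, minus strand) and HBM (chr16:165728-165977, plus strand) had no interval at their start in any of the 6 libraries. SNRNP25 (chr16:53578-53827, plus strand) and POLR3K (chr16:53609-53858, minus strand) have separate starts on opposite strands, and their promoters overlap. The region of these starts, called the POLR3K and SNRNP25 start below, had an interval in 5 libraries. Capitals mark GATAA (the core bound by GATA factors), CACCC (bound by KLF factors), CCAAT and TATAA on either strand; no marked matches overlap.
HBD: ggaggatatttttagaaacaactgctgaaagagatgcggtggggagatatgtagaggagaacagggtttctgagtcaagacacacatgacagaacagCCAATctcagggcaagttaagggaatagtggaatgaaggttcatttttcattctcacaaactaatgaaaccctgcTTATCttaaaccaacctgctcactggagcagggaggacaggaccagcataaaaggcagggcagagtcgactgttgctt
HBM: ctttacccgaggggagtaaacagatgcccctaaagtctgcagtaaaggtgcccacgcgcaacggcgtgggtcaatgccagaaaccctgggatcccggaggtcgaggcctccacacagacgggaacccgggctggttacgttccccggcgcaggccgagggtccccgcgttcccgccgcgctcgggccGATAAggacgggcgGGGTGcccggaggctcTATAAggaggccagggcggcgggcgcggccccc
SNRNP25: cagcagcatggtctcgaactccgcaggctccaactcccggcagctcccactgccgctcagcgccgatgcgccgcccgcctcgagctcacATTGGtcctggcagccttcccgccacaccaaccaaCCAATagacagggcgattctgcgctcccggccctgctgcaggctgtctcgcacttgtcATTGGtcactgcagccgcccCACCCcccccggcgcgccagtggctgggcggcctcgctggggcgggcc
The HBD promoter held 1 GATAA, 1 CCAAT and no CACCC, and 45.2% of its bases were G or C with 2 CpG pairs. The HBM promoter held 1 GATAA, 1 CACCC and 1 TATAA, with 69.2% G or C and 27 CpG pairs. The SNRNP25 promoter held 3 CCAAT, 1 CACCC and no GATAA, with 70.4% G or C and 22 CpG pairs. Among other genes without an interval at their start, the RHBDF1, MPG and NPRL3 promoters had 78.0%, 76.8% and 66.4% G or C. Their CpG pairs numbered 30, 27 and 29. Over all 35116 RefSeq promoters of that length, 20.4% held GATAA, 54.7% CACCC, 32.0% CCAAT and 18.9% TATAA, and the median promoter had 58.0% G or C and 11 CpG pairs. These matches are descriptions of letters and not of bound sites.

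The libraries differed in depth, and its part in the counts that follow was not tested. Depth relative to the shallowest library was 2.22 in E669Q with CPT and 1.33 with DMSO, 1.09 in wild-type SLFN11 with CPT and 1.72 with DMSO, and 1.09 in vector with CPT and 1.00 with DMSO. The windows held 4 intervals in E669Q with CPT and 6 with DMSO, 4 in wild-type SLFN11 with CPT and 9 with DMSO, and 4 in vector with CPT and 1 with DMSO. Per 1000 intervals of each list this was 0.324 and 0.717 in E669Q with CPT and with DMSO, 0.719 and 0.773 in wild-type SLFN11 and 0.689 and 0.191 in vector. The deepest library, E669Q with CPT, held fewer globin intervals (4) than both SLFN11-line libraries with DMSO (9 and 6). Without it, the counts followed the order of depth. They were 9 at 1.72, 6 at 1.33, 4 in each of the libraries at 1.09 and 1 at 1.00. In the sequence on either side of the windows, each side as long as its window except where chromosome 16 ends before the alpha window, the beta cluster had 0 to 3 intervals per library and the alpha cluster 0 to 2. The nearest intervals outside lay 38.9 kb before the alpha window in E669Q with DMSO (fold 6.45) and 44.15 kb after it in wild-type SLFN11 with DMSO (fold 6.07). The outermost inside were the POLR3K and SNRNP25 start and HS4, described below.

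**Figure D1:**
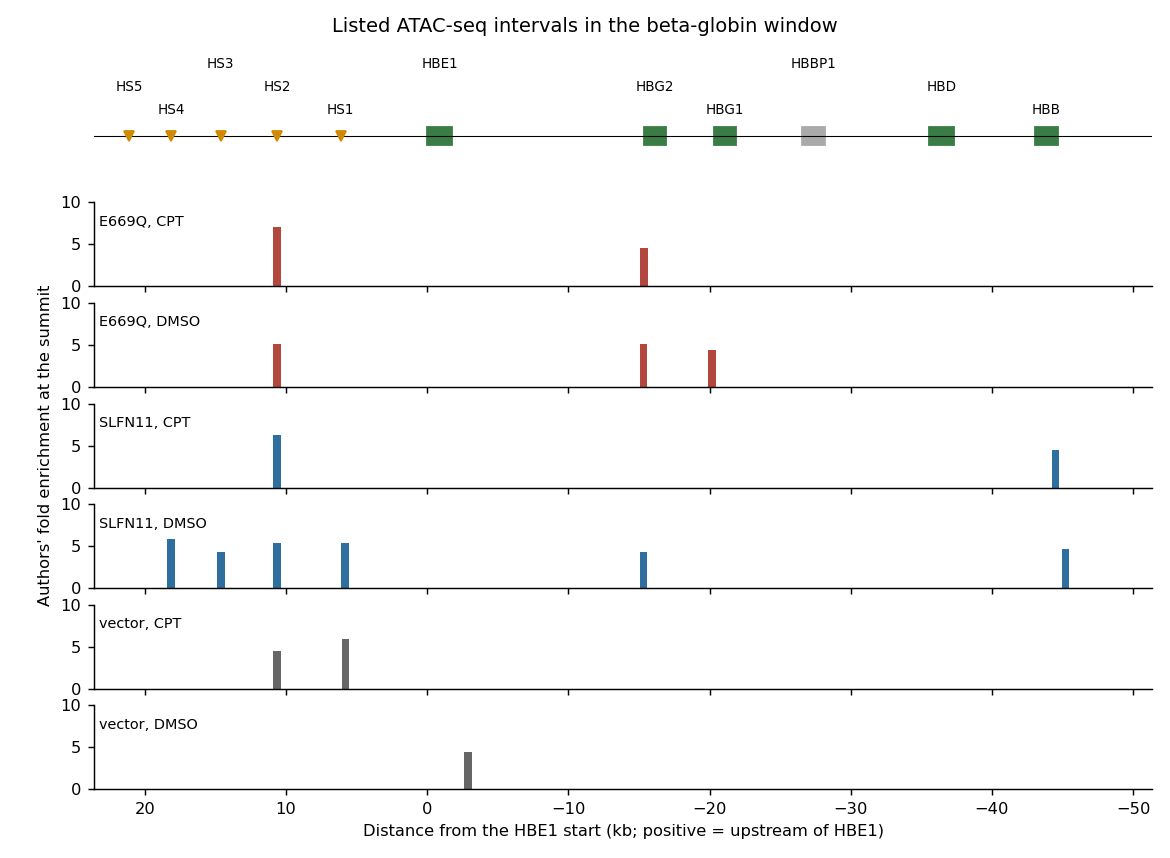
Authors' fold enrichment at the summit of each listed interval (vertical axis) against distance from the HBE1 start in kb (horizontal axis, upstream to the left), 1 row per library. Green boxes are globin genes, the grey box a pseudogene and triangles the hypersensitive sites. The bar at HS2 stands in 5 of 6 rows, while HS3 and HS4 have a bar in wild-type SLFN11 with DMSO alone.

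HS2, the strongest classical enhancer of the locus control region, was the most widely listed element of the beta cluster, found in 5 of 6 libraries. The merged region lay at chr11:5301900-5302096, between 10.62 and 10.64 kb upstream of the HBE1 start, and the 5 summits fell within 28 bp of each other. The authors' fold enrichment there, a ratio over local background, was 7.06 in E669Q with CPT and 5.05 with DMSO, 6.27 in wild-type SLFN11 with CPT and 5.40 with DMSO, and 4.47 in vector with CPT. The summit pileups behind these folds were 17 and 10 fragments in E669Q with CPT and with DMSO, 10 and 13 in wild-type SLFN11, and 7 in vector with CPT. Vector with DMSO, the shallowest library, did not list it.

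The other hypersensitive sites were listed less widely. HS1 (chr11:5296920-5297278) was listed in wild-type SLFN11 with DMSO, at fold 5.38 and a pileup of 11 fragments, and in vector with CPT, at fold 5.96 and 9 fragments. HS3 (chr11:5305950-5306116) had fold 4.29 and 11 fragments, and HS4 (chr11:5309446-5309638) fold 5.87 and 14 fragments, both in wild-type SLFN11 with DMSO alone. HS5, the outermost site and a boundary element, was in no list. Wild-type SLFN11 with DMSO therefore listed 4 of the 5 sites, vector with CPT 2, E669Q at either treatment and wild-type SLFN11 with CPT 1 each, and vector with DMSO 0. The whole lists held 12337 intervals in E669Q with CPT and 8365 with DMSO, 5562 in wild-type SLFN11 with CPT and 11651 with DMSO, and 5806 in vector with CPT and 5246 with DMSO. Cut to its 5246 strongest intervals, wild-type SLFN11 with DMSO kept 2 globin intervals in all. No share over all enhancers stands beside these counts.

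Of the promoters in the beta cluster, those of the fetal genes were the ones listed. HBG2, which encodes the G-gamma chain, had an interval at chr11:5275906-5276166 in E669Q with CPT (fold 4.58, 9 fragments), E669Q with DMSO (fold 5.05, 9 fragments) and wild-type SLFN11 with DMSO (fold 4.32, 12 fragments). Its summits lay 13 to 43 bp upstream of the gene's start and within 30 bp of each other. HBG1, which encodes the A-gamma chain, had one at chr11:5271091-5271232 in E669Q with DMSO (fold 4.45, 8 fragments), with its summit 98 bp upstream of the start. Neither was listed in wild-type SLFN11 with CPT or in the vector libraries. HBG1 and HBG2 are near-identical copies, and the sources do not say how reads that match both were handled, so the division of signal between them is uncertain.

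The embryonic HBE1 and the adult HBB and HBD had no interval within 500 bp of their start in any library. Near HBE1, vector with DMSO listed chr11:5288444-5288619, 961 bp beyond the gene's 3′ end, with fold 4.42 and 5 fragments; it was the sole globin interval of that library. Near HBB there were intervals at the 3′ end of the gene in the wild-type SLFN11 line. With CPT one lay inside HBB (chr11:5246829-5247034, fold 4.52, 12 fragments), its summit 1449 bp downstream of the start. With DMSO one lay 350 bp beyond the 3′ end (chr11:5246132-5246346, fold 4.71, 6 fragments). Each of these 3 intervals was in a single library.

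**Figure D2:**
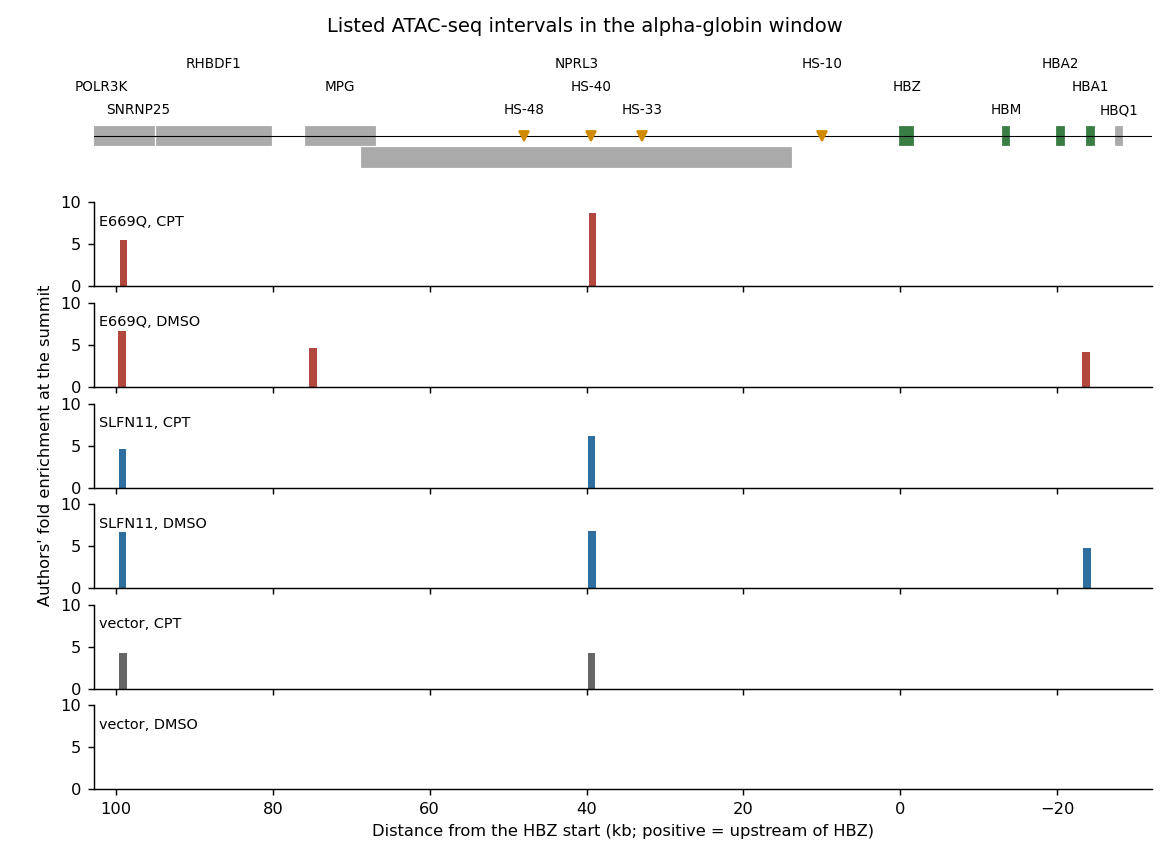
Authors' fold enrichment at the summit of each listed interval (vertical axis) against distance from the HBZ start in kb (horizontal axis, upstream to the left), 1 row per library. Green boxes are globin genes, grey boxes other genes and triangles the upstream enhancers. Bars stand at HS-40 in 4 rows and at the POLR3K and SNRNP25 start in 5, and the row of vector with DMSO is empty.

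In the alpha cluster the listed enhancer was HS-40, the major distal regulator of alpha-globin, which lies in an intron of NPRL3. Its region was chr16:163371-163755, with summits 39.3 to 39.4 kb upstream of the HBZ start and within 121 bp of each other. The fold was 8.70 in E669Q with CPT, the highest of all 28 globin intervals, with 14 fragments. It was 6.16 with CPT and 6.75 with DMSO in wild-type SLFN11, from 7 and 10 fragments, and 4.24 in vector with CPT, from 5 fragments. E669Q with DMSO and vector with DMSO did not list it. The other upstream enhancers searched, HS-48, HS-33 and HS-10, were in no list.

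Among the alpha-type genes, HBA1 alone had an interval at its start. It lay at chr16:226481-226774 and was listed in E669Q with DMSO (fold 4.20, 9 fragments) and in wild-type SLFN11 with DMSO (fold 4.80, 13 fragments), with summits 139 and 45 bp upstream of the start. It was listed in none of the CPT libraries and not in vector with DMSO. HBA2, which encodes the same protein from a near-identical copy, had none, and the same doubt about shared reads applies. The embryonic HBZ and the erythroid HBM had no interval at their start in any library. In all, 3 of the 9 globin genes had an interval at their start in at least 1 library, and the number per library was 1 in E669Q with CPT and 3 with DMSO, 0 in wild-type SLFN11 with CPT and 2 with DMSO, and 0 in both vector libraries. No share over all promoters stands beside this count, since no hg19 annotation was used here, so it is given as a count alone.

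The region at the starts of POLR3K, a subunit of RNA polymerase III, and SNRNP25, a protein of the minor spliceosome, was listed in 5 libraries at chr16:103524-103883. The fold was 5.56 in E669Q with CPT and 6.61 with DMSO, 4.58 in wild-type SLFN11 with CPT and 6.72 with DMSO, and 4.29 in vector with CPT. MPG, a DNA glycosylase, had an interval 965 bp inside the gene in E669Q with DMSO (chr16:127965-128090, fold 4.58, 5 fragments). HBBP1, HBQ1, NPRL3 and RHBDF1 had none at their start, so 2 of 7 other genes had an interval at their start in at least 1 library. These 2, POLR3K and SNRNP25, have separate starts on opposite strands close to each other, and the count rests on 1 merged region. With promoters taken out to 1000 bp the count was 3, with MPG added. Here too no share over all promoters stands beside the count.

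The globin intervals, meaning all 28 in the windows, were mostly weak for their lists. They include those at the POLR3K and SNRNP25 start and in MPG, and a site counts once for each library that listed it. Their median fold was 4.93, against list medians of 5.91 to 6.17, and 7 of the 28 lay above the median fold of their own list. Ranked by the authors' −log10 p-value, the median globin interval was stronger than 26.3% of its list. HS-40 in E669Q with CPT ranked highest, above 81.9% of its list, followed by HS2 in the same library, above 75.9%. HS-40 in vector with CPT ranked lowest, above 0.103%, at a −log10 q-value of 2.00, where the deposited lists end.

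Recurrence was read against the whole series. Of the 13 globin regions 0 were listed in all 6 libraries, against 12.3% of all regions of the series. HS2 and the POLR3K and SNRNP25 start were in at least 5 libraries, which makes 2 of 13 against a background of 22.4%, and with HS-40 3 of 13 were in at least 4, against 33.3%. The regions listed in exactly 1 library numbered 7 of 13, against 38.1%.

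**Figure D3:**
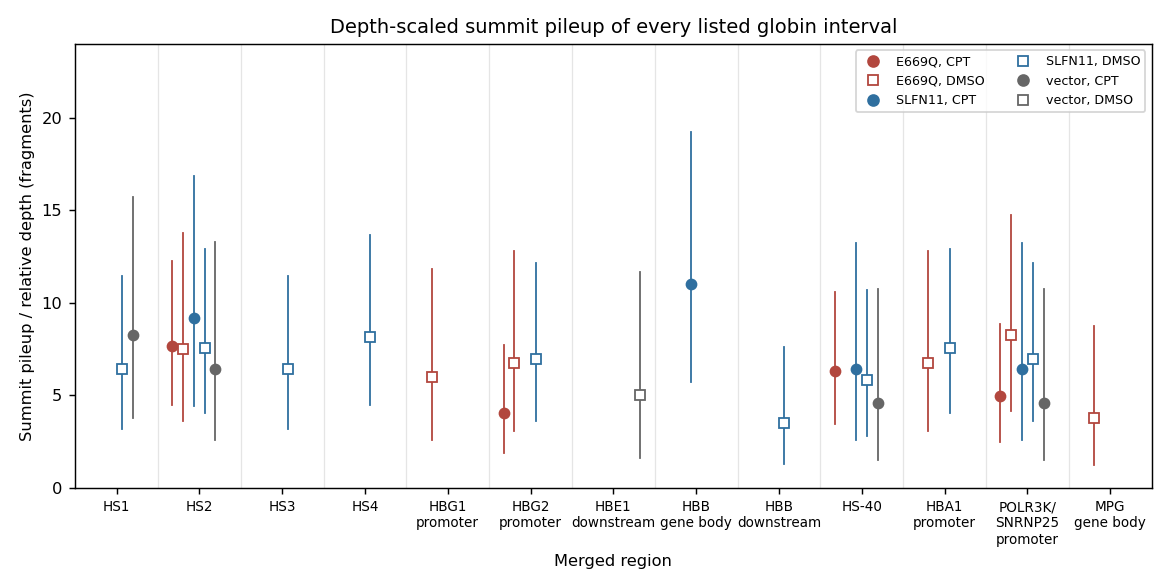
Summit pileup of each listed globin interval divided by the relative depth of its library, in fragments (vertical axis), for the 13 merged regions (horizontal axis). Filled circles are CPT and open squares DMSO libraries, colours are lines, and bars are exact Poisson 95% intervals that cover counting error alone. The bars of every region listed in several libraries overlap, as at HS2, where the values run between 6.44 and 9.17.

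Pileups were scaled to equal depth and set side by side for the sites that were listed. At HS2 the scaled pileup was 7.66 in E669Q with CPT and 7.49 with DMSO, 9.17 in wild-type SLFN11 with CPT and 7.55 with DMSO, and 6.44 in vector with CPT. At HS-40 it was 6.31 in E669Q with CPT, 6.42 and 5.81 in wild-type SLFN11 with CPT and with DMSO, and 4.60 in vector with CPT. At HBG2 it was 4.05 and 6.75 in E669Q with CPT and with DMSO, and 6.97 in wild-type SLFN11 with DMSO. Over the 9 comparisons of libraries there were 19 pairs in which both listed an interval in the same merged globin region. The exact 95% interval of the ratio included 1 in each of the 19. Intervals of 1 merged region can have summits at different places. At the POLR3K and SNRNP25 start, those of E669Q and vector, both with CPT, share no base. With pileups of 5 to 17 fragments these intervals are wide, and the pairs hold only libraries in which the site was listed, so they do not show that the libraries were alike. For HBG2 and for the POLR3K and SNRNP25 start the ratio of CPT over DMSO in E669Q was 0.601 (0.211 to 1.71 and 0.236 to 1.53). At the POLR3K and SNRNP25 start the summits of these libraries lay 173 bp apart, so that ratio compares different positions. For HS2 with CPT over DMSO the ratio was 1.02 in E669Q (95% interval 0.442 to 2.50) and 1.21 in wild-type SLFN11 (0.477 to 3.00).

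**Figure D4:**
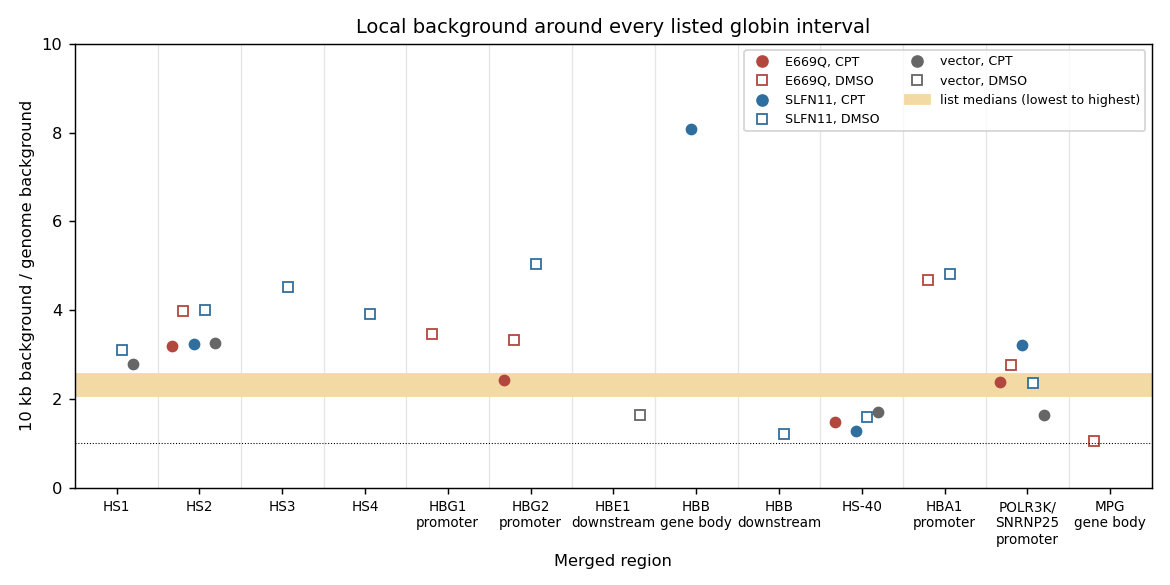
Background of the surrounding 10 kb divided by the genome-wide background of the same library (vertical axis) for each listed globin interval, by merged region (horizontal axis). Symbols and colours give treatment and line, the shaded band spans the 6 list medians of 2.06 to 2.56, and the dotted line marks the genome-wide level. HS2, the gamma promoters and HBA1 lie in or above the band, HS-40 lies below it, and the interval inside HBB is highest at 8.08.

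The sites differed in the background around them, a fragment count that copy number and mappability also move; their part in it was not tested. The background of the 10 kb around each summit, relative to the genome-wide background of its library, was above the list median for 20 of the 28 globin intervals. HS2 sat in a raised background in each library that listed it, at 3.18 in E669Q with CPT and 3.99 with DMSO, 3.24 in wild-type SLFN11 with CPT and 3.99 with DMSO, and 3.25 in vector with CPT. HBA1 sat at 4.69 in E669Q with DMSO and 4.80 in wild-type SLFN11 with DMSO. HS-40 stood in a low one, 1.49 in E669Q with CPT, 1.28 and 1.58 in wild-type SLFN11 with CPT and with DMSO, and 1.71 in vector with CPT. In E669Q with CPT, 14 fragments at HS-40 thus gave fold 8.70 and 17 fragments at HS2 fold 7.06, and in wild-type SLFN11 with DMSO 10 fragments gave 6.75 and 13 gave 5.40. In wild-type SLFN11 with CPT the folds were 6.16 from 7 fragments at HS-40 and 6.27 from 10 at HS2.

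The comparison of CPT with DMSO asks what replication stress does at these loci in each line. In E669Q, HS-40 was listed with CPT and not with DMSO, 1 of 4 CPT intervals, against 45.2% over all intervals. The HBG1 and HBA1 promoters and the MPG interval were listed with DMSO and not with CPT, 3 of 6, against 19.0%. In wild-type SLFN11 the interval inside HBB was the 1 of 4 listed with CPT alone, against 15.1%. HS1, HS3, HS4, HBG2, HBA1 and the interval beyond HBB were listed with DMSO alone, 6 of 9, against 59.5%. In vector all 4 CPT intervals (HS1, HS2, HS-40 and the POLR3K and SNRNP25 start) were without counterpart with DMSO, against 45.1%, and the interval near HBE1 was the 1 of 1 listed with DMSO alone, against 39.5%.

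The number of globin intervals with CPT was 2 below that with DMSO in E669Q and 5 below in wild-type SLFN11, and 3 above it in vector. With each list cut to its 5246 strongest intervals by −log10 p-value, the counts were 2 with CPT and 1 with DMSO in E669Q, 4 and 2 in wild-type SLFN11 and 1 and 1 in vector. The direction in both SLFN11 lines thus turned with the length of the lists. The paired test that follows was not the planned one, which was on pileups. Its units are 3 lines that differ in SLFN11, with differences of -0.393 in E669Q, -0.0533 in wild-type SLFN11 and 0.498 in vector. As a share of each list, paired by line, the mean CPT minus DMSO difference was 0.0173 intervals per 1000 ± 0.450 (SD, n = 3 lines; two-sided exact sign-flip permutation p = 1.0; the smallest p that 3 lines allow is 0.25), and it was positive in 1 of 3 lines.

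Between lines, the comparison at nearly equal depth was wild-type SLFN11 with vector, both with CPT. Both listed HS2, HS-40 and the POLR3K and SNRNP25 start, with folds of 6.27, 6.16 and 4.58 in wild-type SLFN11 and 4.47, 4.24 and 4.29 in vector. Wild-type SLFN11 alone listed the interval inside HBB, 1 of 4 against 42.5% over all intervals, and vector alone listed HS1, 1 of 4 against 44.8%. The scaled pileup ratio of wild-type SLFN11 over vector was 1.42 at HS2 (95% interval 0.489 to 4.41) and 1.40 at HS-40 (0.381 to 5.58), against a median of 0.997 over 3265 regions that both libraries listed. With DMSO the vector library shared no globin interval with either SLFN11 line: 9 of 9 wild-type SLFN11 intervals were not in vector, against 62.0%, and 6 of 6 E669Q intervals were not, against 56.1%. The 1 vector interval was in neither SLFN11-line list, against 15.4% of vector intervals missing from wild-type SLFN11 and 29.9% from E669Q. These comparisons share the vector library, whose depth was the lowest of the series.

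E669Q and vector, both with CPT, each listed HS2 and HS-40, with folds of 7.06 and 8.70 in E669Q and 4.47 and 4.24 in vector at depths of 2.22 and 1.09. Of the E669Q intervals 2 of 4 were not in vector, HBG2 and the one at the POLR3K and SNRNP25 start, against 60.5%. Of the vector intervals 2 of 4 were not in E669Q, HS1 and the one at that same start, against 15.7%. The intervals at this start share no base, with the E669Q summit 198 bp and the vector summit 122 bp upstream of POLR3K, and they fall in 1 merged region. The scaled pileup ratio of E669Q over vector was 1.19 at HS2 (95% interval 0.469 to 3.39) and 1.37 at HS-40 (0.467 to 4.87), beside a median of 0.816 over 4834 regions that both listed.

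E669Q was set against wild-type SLFN11 at each treatment. With DMSO both listed HS2, HBG2, HBA1 and the POLR3K and SNRNP25 start, with scaled pileup ratios of 0.993, 0.968, 0.893 and 1.18. E669Q alone listed HBG1 and the MPG interval, 2 of 6 against 23.4%, and wild-type SLFN11 alone listed HS1, HS3, HS4, HS-40 and the interval beyond HBB, 5 of 9 against 45.3%. With CPT both listed HS2, HS-40 and the POLR3K and SNRNP25 start, with ratios of 0.835, 0.983 and 0.772, beside a median of 0.819 over 4694 regions. E669Q alone then listed HBG2, 1 of 4 against 61.7%, and wild-type SLFN11 alone the interval inside HBB, 1 of 4 against 15.2%.

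A site missing from a list was not called there, which is not the same as closed chromatin, and its pileup in that library is not known. Scaled to the depth of vector with DMSO, the HS2 pileups of the other libraries would come to 6.44 to 9.17 fragments, and 7 are needed in the background those libraries had around HS2. The scaled HS2 values thus lie on both sides of the number needed. HBG2 would come to 4.42 to 7.60 fragments in wild-type SLFN11 with CPT, with 6 to 8 needed. These ranges overlap, so they do not show whether HBG2 could have been listed there. Such scaled values come from libraries that listed the site, which biases them upward, and for HS3 and HS4 from 1 library. In E669Q with CPT, the deepest library, HS1 would come to 14.2 to 18.4 fragments with 9 needed, HS4 to 18.1 with 10 needed, HS3 to 14.2 with 11 needed and HBA1 to 15.0 to 16.8 with 11 needed, and none was listed. These values do not show what pileup that library had. Regions listed in both E669Q libraries had a median scaled pileup ratio of 0.842 for CPT over DMSO (6696 regions), and the part of this lower ratio in these missing sites was not tested. For HS-40 in E669Q with DMSO, the other libraries give 6.14 to 8.56 fragments, with 5 to 6 needed.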

How the data were processed

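The members and lists were chosen with earlier results of these data known. Per the submitters' processing notes the tools were MACS2 2.1.2, Picard 2.9.2, SAMtools 1.8, Bowtie2 2.2.6 and Trimmomatic 0.39, with hg19 as build; roles and settings are not stated. The authors deposited peaks library by library. Each deposited entry has the authors' fold enrichment at the summit (a ratio over local background), −log10 p-value, −log10 q-value and a score, the whole part of 10 times the latter. Transposase shift and duplicate handling are not given in the sources used here.

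Entries of 1 interval were reduced to the strongest summit, and intervals overlapping by 1 bp were merged or called shared. Summit pileups and backgrounds were recovered from fold and −log10 p-value with MACS2's formulas (pseudocount 1; solved within 0.001 for 98.6% to 99.2% of entries). The background is taken to be that of 10 kb, as MACS2 uses without a control. Its steps, each 1 fragment, gave relative depth. The recovery was tested on data simulated with the same formulas, which checks the inversion alone. It cannot show that the deposited values follow these formulas or that the background spans 10 kb.

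No hg19 annotation was used here. Gene starts and enhancers were placed at their commonly known hg19 positions. The spacing of 15 of 16 gene starts was within 250 bp of that in a RefSeq table of another build, all but RHBDF1. The enhancer positions had no such check. A promoter had an interval within 500 bp, an enhancer within 1000 bp. Named were all globin genes, all regions and the other genes of the windows. Alternatives were stricter q-values and folds, lists of equal length, wider windows, other distances and other overlaps. With 1 library per group no test between groups was made, except the sign-flip test over lines. Intervals are exact Poisson or Clopper-Pearson 95% intervals and cover counting error only. Software was scipy 1.17.1, pandas 2.3.3, matplotlib 3.10.9 and numpy 2.4.6 under Python 3.11.15.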

Additional observations from a re-analysis of the deposited data

Results flagged for a closer look

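The number of globin intervals with CPT minus that with DMSO was -2 in E669Q and -5 in wild-type SLFN11, and 3 in vector. It drew attention because the SLFN11 lines and the vector line went opposite ways, with no test of that difference, as every group has 1 library. Beside it, relative depth with CPT and with DMSO was 2.22 and 1.33 in E669Q, 1.09 and 1.72 in wild-type SLFN11 and 1.09 and 1.00 in vector, and its part in the result was not tested.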

How the results depend on the processing

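No paired analysis by replicate was possible because each group has 1 library. Of 91 values recomputed under alternatives, 58 stayed within 1.5 times the reported value, 30 moved further and 3 changed sign. Most of the 58 came from other promoter distances, counting every entry or wider windows, and some were 0 against 0. The number of globin genes with an interval at their start stayed the same at 1000 and 200 bp. The number of other genes with one in any library, 2 as reported, was 3 at 1000 bp and 2 at 200 bp. The count of regions in all 6 libraries was 0 under the 3 alternatives run. Pileups averaged over such regions, and their planned paired test, could not be had, since there were none. Counting every entry or widening the windows by 10 kb changed no count of globin intervals.

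Stricter thresholds and equal list lengths moved the counts. Libraries are given in the order E669Q with CPT and DMSO, wild-type SLFN11 with CPT and DMSO, vector with CPT and DMSO. At −log10 q-values of at least 5 the globin intervals were 3, 1, 1, 4, 0 and 0, at fold of at least 5 they were 3, 3, 2, 5, 1 and 0, and in lists of equal length 2, 1, 4, 2, 1 and 1. CPT minus DMSO was then 2, 0 and 1 in E669Q, -3, -3 and 2 in wild-type SLFN11, and 0, 1 and 0 in vector, so the sign turned in E669Q (2 and 1) and, at equal length, in wild-type SLFN11 (2). The 3 regions in at least 4 libraries (chosen after seeing the data) became 1 when an interval had to cover 50% of the region, and 0 at the stricter q-value and at equal length. They were 2 to 3 when any 1 library was left out. Intervals in CPT alone became 2 in E669Q and 3 in wild-type SLFN11 with reciprocal overlap of 50%, and 2, 2 and 1 in E669Q, wild-type SLFN11 and vector at equal length. Those in DMSO alone became 1 in E669Q and 0 in wild-type SLFN11 at equal length. The causes were not tested. The lowest listed pileups were 4 to 6 fragments.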

Other observations

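The interval inside HBB in wild-type SLFN11 with CPT had 227 fragments in the 10 kb around its summit, 8.08 times the genome-wide background and more than 96.4% of that list. The interval beyond the 3′ end of HBB in wild-type SLFN11 with DMSO, a deeper library, had 54 fragments in its 10 kb, 1.22 times the background. The summits lie at 5246852 and 5246159 on chromosome 11, so the 10 kb stretches largely cover the same DNA. Both counts were recovered from fold and −log10 p-value, not counted from reads, and the 10 kb span is assumed. The part of this recovery in the difference was not tested. The places were picked after their values were seen, and rest on 1 library each.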
